A study of Mus musculus with 24 samples.

Results

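S100 proteins are small calcium-binding proteins of the EF-hand type, encoded by a gene family that lies mostly in a cluster on mouse chromosome 3. The genes described here are the 9 S100 genes S100a1, S100a4, S100a6, S100a8, S100a9, S100a10, S100a11, S100a13 and S100a16, chosen by symbol from the 33000 genes of the count table, with S100b left out. None of the 9 differed between GFAP-IL6 and WT cortex by the thresholds used for differentially expressed genes (DEGs). S100a1 was 1.14-fold and S100a13 1.19-fold higher in the GFAP-IL6 mice without passing those thresholds, S100a10 had nearly the same mean in both, and S100a8, S100a9 and S100a11 varied more between mice of 1 genotype than between genotypes. With the mouse as a replicate block, S100a11 and S100a13 were called lower with 2 ng than with 1 ng of cDNA from the same mice. They were 2 of 8 S100 genes tested, against 33.3% of all genes, and without the block 0 of the 8 passed.

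The libraries came from the frontal cortex of 6 mice aged 3 months, 3 C57BL/6 WT mice without the transgene and 3 mice homozygous for GFAP-IL6. This transgene places interleukin-6 (IL-6) under the promoter of the astrocyte gene Gfap. The labels name no treatment. Each mouse gave 4 3'Pool-seq libraries. In set A and again in set B, 1 library was tagmented from 2 ng and 1 from 1 ng of cDNA, and what distinguishes the sets is not in the labels. 3'Pool-seq copies RNA from its polyA tail and sequences the 3' end of each transcript, so values are given as CPM, the counts scaled to a common library size, adjusted by TMM factors and not divided by length unless stated.

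When calcium binds, an S100 dimer exposes a surface that binds other proteins, and through it the family acts on the cytoskeleton, on calcium handling and on membranes. Some members are also released and act on receptors such as RAGE (Ager) and TLR4. In the brain S100b is the best known as an astrocyte protein, S100a8 and S100a9 form calprotectin and are abundant in neutrophils, and IL-6 signals into the nucleus through STAT3.

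Reads counted per library ranged from 1524165 to 12256374, and summed over the 4 libraries of a mouse they ranged from 7852743 in WT 3 to 37582644 in GFAP-IL6 3. Il6 averaged 0.142 ± 0.132 CPM in WT and 2.99 ± 1.33 CPM in GFAP-IL6 mice (SD, n = 3 each), a log2 fold change of 4.06 with an edgeR adjusted p of 0.000783. The 8 neuron markers summed to between 8529 and 9984 CPM in every mouse, the astrocyte markers to between 2984 and 3547 CPM and the oligodendrocyte markers to between 5522 and 8636 CPM, so the defining markers of cortical tissue were present in each mouse. WT 3 stood apart, with choroid plexus and ependymal markers at 4075 CPM against 85.6 to 757 CPM in the other 5 mice. Ttr made up most of that sum on average in both genotypes, at 1430 ± 2256 CPM in WT and 413 ± 334 CPM in GFAP-IL6 mice (SD, n = 3 each). Results that turn on WT 3 are given without it below.

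On the GRCm38 assembly (GENCODE vM21 annotation) all 9 genes lie on chromosome 3. The 7 genes S100a1, S100a13, S100a16, S100a4, S100a6, S100a8 and S100a9 lie within 185 kb, from base 90511034 to base 90695721, while S100a11 (93520488 to 93526287) and S100a10 (93555080 to 93564643) lie further along the chromosome with 28792 bases between them. S100a1 (90511034 to 90514392, minus strand) and S100a13 (90514435 to 90524581, plus strand) point away from each other with 42 bases between them. The upstream sequences of S100a8, S100a4, S100a9 and S100a11 and the stretch between S100a1 and S100a13 are shown as examples with and without the letters searched, chosen after their matches were seen, and each was read from the RefSeq promoter table, which held windows for 8 of the 9 genes. S100a10 had no window. The capitals mark the letters TATAAA of a TATA box, TGANTCA of a loose AP-1 motif (N for any base) or GGGCGG of a GC box, searched on both strands. Each stretch ends at the RefSeq start except that of S100a9, which runs 6 bases past it.

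The stretch upstream of S100a8 (chr3:90668821-90669070, plus strand) has TATAAA starting 30 bases before the start, in S100a4 (chr3:90603520-90603769, plus strand) it starts 31 bases before it, and in S100a9 (chr3:90695716-90695971, minus strand) the same letters begin at the start itself.
S100a8: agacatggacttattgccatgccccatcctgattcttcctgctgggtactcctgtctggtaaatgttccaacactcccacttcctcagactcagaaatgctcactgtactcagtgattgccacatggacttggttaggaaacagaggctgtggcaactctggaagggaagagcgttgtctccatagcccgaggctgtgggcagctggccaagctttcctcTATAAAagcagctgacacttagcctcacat
S100a4: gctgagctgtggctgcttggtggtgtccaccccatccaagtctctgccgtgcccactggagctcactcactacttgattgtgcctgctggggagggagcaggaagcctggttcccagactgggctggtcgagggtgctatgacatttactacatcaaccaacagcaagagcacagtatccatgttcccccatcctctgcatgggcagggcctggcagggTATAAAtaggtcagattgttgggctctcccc
S100a9: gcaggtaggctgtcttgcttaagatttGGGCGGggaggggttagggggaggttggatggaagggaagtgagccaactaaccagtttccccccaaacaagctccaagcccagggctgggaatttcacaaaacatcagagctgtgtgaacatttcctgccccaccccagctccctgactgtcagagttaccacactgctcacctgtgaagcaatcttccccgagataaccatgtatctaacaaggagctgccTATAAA

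The stretch upstream of S100a11 (chr3:93520246-93520495, plus strand) has no TATAAA and carries TGAGTCA at 136 and 38 bases before the start and GGGCGG at 64, 52 and 24 bases before it. The 104 bases between the RefSeq starts of S100a1 and S100a13 (chr3:90514331-90514434, plus strand) hold none of the motifs searched and so have no capitals, and the promoter windows of those 2 genes share 204 bases.
S100a11: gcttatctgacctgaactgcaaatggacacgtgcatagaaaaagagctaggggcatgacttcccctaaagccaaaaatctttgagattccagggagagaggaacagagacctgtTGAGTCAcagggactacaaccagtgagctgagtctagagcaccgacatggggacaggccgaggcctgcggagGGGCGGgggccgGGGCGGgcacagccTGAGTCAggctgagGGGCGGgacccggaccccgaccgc
S100a1 to S100a13: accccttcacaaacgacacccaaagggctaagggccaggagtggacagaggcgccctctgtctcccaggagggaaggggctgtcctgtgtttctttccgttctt

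Over whole windows of 300 bases, 250 before and 50 after the start, TATAAA was found in S100a4, S100a8 and S100a9 and in 13.6% of the 32851 windows in the table. These 3 genes were also the lowest of the 9 in the cortex, which was seen after the values were known, and a link between letters and level was not tested. TGANTCA was found in S100a11 (as TGAGTCA), in S100a16 (as TGAATCA) and in 7.81% of all windows. GGGCGG was found in S100a9, S100a11 and S100a16 and in 35.7% of all windows. S100a16 had 2 windows, and its matches to these 2 motifs lay in 1 of them. CANNTG (E-box) was found in 6 of the genes and in 72.3% of all windows, and some of its matches can overlap other motifs. TTCNNNGAA, the palindrome that STAT proteins bind, was found in no window of these genes and in 8.3% of all windows. A match or its absence describes the letters of these windows only.

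In WT cortex the members fell into 3 ranges. S100a1, known for binding the ryanodine receptor and the calcium pump of muscle, was the highest at 263 ± 4.79 CPM (SD, n = 3), followed by S100a16 at 191 ± 9.12, S100a6 at 115 ± 8.60, S100a10 at 110 ± 7.20 and S100a13 at 83.7 ± 8.78 CPM. S100a11 was at 8.90 ± 1.35 CPM, and S100a8, S100a4 and S100a9 were at or near 1 CPM. Divided by the gene length in the deposited table, the WT level of S100a1 was 379 ± 6.90 CPM per kb, above S100a6 at 143 ± 10.6 in every mouse. Per kb, S100a6, S100a10, S100a16 and S100a13 lay between 117 and 143, and each neighbour in that order overlapped the next over the 3 mice. S100a11 at 17.4 ± 2.64 CPM per kb was below S100a13 in every mouse and above S100a8 at 2.48 ± 2.23, and S100a8 overlapped S100a4. With reads taken from the 3' end, the division by length is a scale for comparison and not a measure of molecules.

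**Figure D1:**
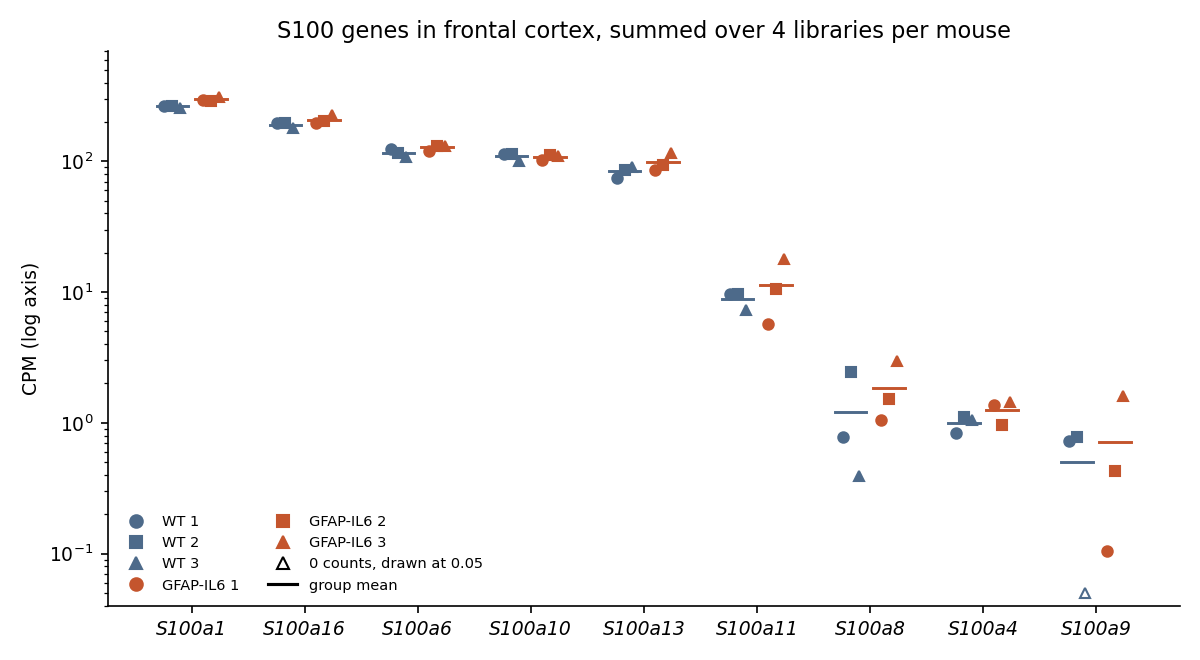
CPM of the 9 S100 genes in each mouse on a log axis, with the 4 libraries of a mouse summed, points for mice and short lines for group means. The 5 genes on the left lie between 73.9 and 310 CPM in every mouse, S100a11 lies between 5.69 and 17.8 CPM, and S100a8, S100a4 and S100a9 lie under 3 CPM.

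Reads were too few for some tests. S100a4 had 133 counts over all 24 libraries, S100a8 had 219 and S100a9 had 100, against 32675 for S100a1. S100a9 was at 0 in 8 of 24 libraries, S100a8 in 3 and S100a4 in 1. Summed per mouse, all 9 genes passed the filter on low counts, but within single sets S100a4 and S100a9 passed in none and S100a8 in the 1 ng set B alone. A gene named Gm42674 in GENCODE vM21 shares 302 exon bases with S100a4 on the same strand and had 0 counts in every mouse. How the authors treated reads that overlap both genes is not given in the sources used here, and S100a4 is therefore uncertain.

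The question of the genotype comparison was which genes differ in cortex when IL-6 is expressed from the Gfap promoter. Of 14621 genes tested with the counts summed per mouse, 180 (1.23%) were DEGs, with an adjusted p under 0.05 and a log2 fold change past 1 in either direction, and 0 of the 9 S100 genes were among them. edgeR gave an unadjusted p under 0.05 for 2 of the 9, S100a1 and S100a13, and for 8.75% of all genes, and DESeq2 called 0. At an adjusted p under 0.05 alone, 1.8% of all genes passed and 0 of the 9. The log2 fold changes (GFAP-IL6 over WT) had a median of 0.25 over the 9 genes and of -0.0069 over all genes tested, and 8 of the 9 were positive against 7038 of 14621.

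S100a1 was the gene whose genotypes were furthest apart for its spread. It was at 267, 264 and 258 CPM in WT 1 to 3 and at 296, 291 and 310 CPM in GFAP-IL6 1 to 3. No mouse of one genotype overlapped the other, a separation in the same direction that 8.43% of all genes tested showed. The log2 fold change was 0.18 ± 0.078 (SE), the 95% interval 0.018 to 0.35, and the edgeR adjusted p 0.487, and an exact two-sided permutation test gave p = 0.1, the smallest that 3 against 3 mice allow. The GFAP-IL6 libraries were all above the WT libraries in 3 of the 4 sets for S100a1. This held in 2 sets for S100a13, in 1 for S100a8 and in no set for the other S100 genes. The share of all genes separated in this way within sets was not counted. The within-set log2 fold changes of S100a1 ran from 0.12 (1 ng set A) to 0.27 (2 ng set A). In a limma voom fit of all 24 libraries with the mouse as a random block, S100a1 had a log2 fold change of 0.19 and an adjusted p of 0.00662, where 4.42% of genes passed an adjusted p under 0.05. That fit takes a correlation shared by all genes, so repeats of the same RNA can count in part as replicates. Its p can therefore be too small for 3 against 3 mice.

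S100a13, which takes part in the release of FGF1 from cells, lies beside S100a1 and was at 73.9, 86.2 and 90.9 CPM in WT 1 to 3 and at 86.0, 94.2 and 115 CPM in GFAP-IL6 1 to 3. The lowest GFAP-IL6 mouse lay inside the WT range and the highest was GFAP-IL6 3, which was also the highest mouse in each of the 4 sets. Its log2 fold change was 0.25 ± 0.113 (SE; 95% interval 0.0066 to 0.49; edgeR adjusted p = 0.546). Within the 1 ng set A it was 0.44 with an adjusted p of 0.0598, and in the 1 ng set B it was 0.16. In the voom fit the gene had a log2 fold change of 0.32 and an adjusted p of 0.0162, with the limit given for S100a1. The edgeR value was 0.11 without GFAP-IL6 3 and 0.16 without WT 1. S100a1 and S100a13 were the only genes of the 9 with an adjusted p under 0.05 in any of the fits of the summed genotype comparison or its alternatives. Both passed in the voom fit, which tested 6 of the 9, and neither reached a log2 fold change of 1. Within the 1 ng set A, 1 of 9 S100 genes tested had an adjusted p under 0.05 with no filter. The same was true of 1 of 7 without WT 3 and 1 of 7 without GFAP-IL6 1, and 0 were called. The share of all genes at that threshold was not counted in those 3 fits, so these counts cannot be set against it.

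S100a16, a widely expressed member, was between 180 and 197 CPM in WT and between 195 and 225 CPM in GFAP-IL6 mice, with a log2 fold change of 0.13 ± 0.085 (SE; 95% interval -0.054 to 0.31; edgeR adjusted p = 0.756) that was 0.067 without GFAP-IL6 3. S100a6, which binds calcyclin-binding protein (Cacybp), was between 107 and 124 CPM in WT and between 121 and 132 CPM in GFAP-IL6 mice. Its log2 fold change was 0.15 ± 0.086 (SE; 95% interval -0.036 to 0.33; edgeR adjusted p = 0.715) and ran from 0.046 to 0.34 within sets. For both genes the genotypes overlapped.

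S100a10, the partner of annexin A2 at membranes, had the log2 fold change nearest to 0 of the 9. It was at 113, 114 and 101 CPM in WT 1 to 3 and at 102, 113 and 109 CPM in GFAP-IL6 1 to 3, so that the genotypes covered the same range. The log2 fold change was -0.023 ± 0.085 (SE), with a 95% interval of -0.20 to 0.16 and an edgeR adjusted p of 0.975. Of the 6 genes tested in all 4 sets it was the 1 with values of both signs, -0.031 and -0.013 with 2 ng in sets A and B and 0.058 and -0.071 with 1 ng in sets A and B. All the 95% limits in these 4 sets and in the summed fit lay between -0.30 and 0.28.

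**Figure D2:**
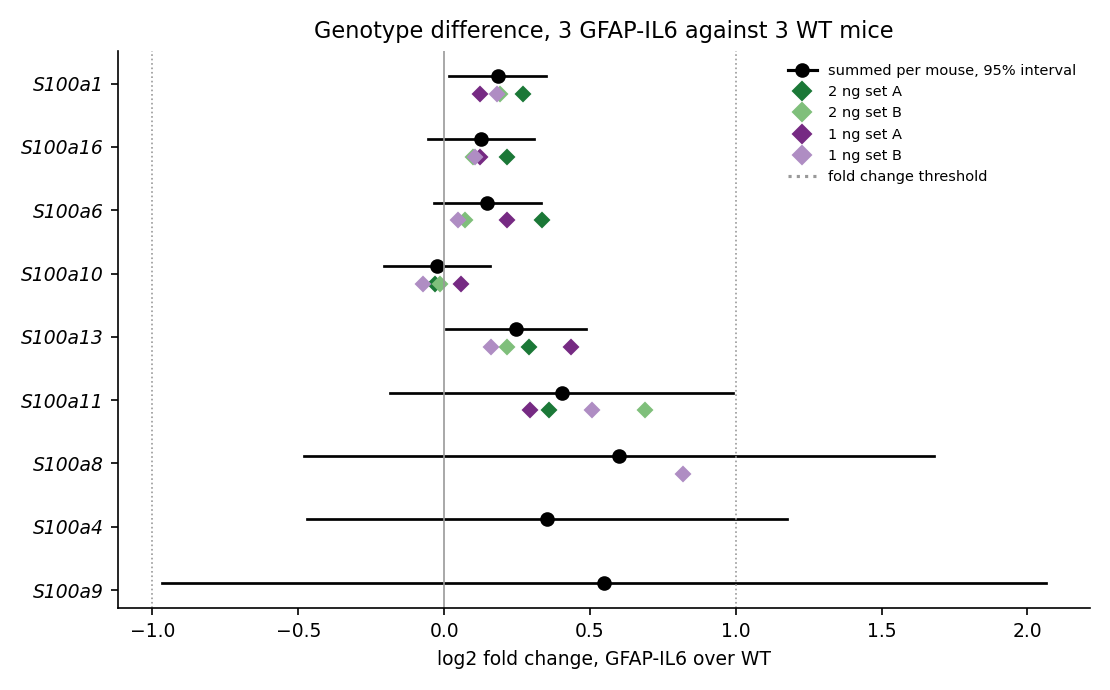
Log2 fold change of GFAP-IL6 over WT for each gene, as a black point with its 95% interval from the counts summed per mouse and as diamonds for the sets in which the gene passed the filter. S100a1, S100a16, S100a6, S100a10 and S100a13 have intervals within 0.49 of 0, while those of S100a8, S100a4 and S100a9 reach past 1, marked by the dotted line.

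S100a11, which binds annexin A1, was at 9.67, 9.69 and 7.34 CPM in WT 1 to 3 and at 5.69, 10.6 and 17.8 CPM in GFAP-IL6 1 to 3. The GFAP-IL6 mice thus held both the lowest and the highest value of the 6, with a coefficient of variation of 53.6% against 15.2% in WT. The counting intervals did not cover that spread, with 4.28 to 7.43 CPM in GFAP-IL6 1 and 16.5 to 19.2 CPM in GFAP-IL6 3 (exact Poisson, 95%). GFAP-IL6 3 was the highest mouse in each of the 4 sets, at 10.9 and 15.7 CPM with 2 ng and at 21.2 and 21.5 CPM with 1 ng in sets A and B. The 2 mice with the fewest reads, WT 3 and GFAP-IL6 1, had the lowest values and the mouse with the most reads had the highest. The part that depth had in the values of single mice was not tested. The log2 fold change was 0.40 ± 0.275 (SE; 95% interval -0.18 to 0.99; edgeR adjusted p = 0.765). It was -0.10 without GFAP-IL6 3, 0.66 without GFAP-IL6 1 and 0.38 with totals made equal by down-sampling.

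S100a8 was at 0.780, 2.44 and 0.393 CPM in WT 1 to 3 and at 1.05, 1.53 and 2.98 CPM in GFAP-IL6 1 to 3, from between 3 and 115 counts per mouse. WT 2 was above 2 of the 3 GFAP-IL6 mice, and the log2 fold change of 0.60 ± 0.506 (SE; 95% interval -0.48 to 1.68) had an edgeR adjusted p of 0.834. Without WT 2 it was 1.61 with an adjusted p of 0.325, without WT 1 it was 0.29, without WT 3 it was 0.34, and without GFAP-IL6 3 it was 0.036. The counting intervals of WT 2 (1.77 to 3.27 CPM) and WT 3 (0.0811 to 1.15 CPM) did not overlap (exact Poisson, 95%). S100a9, the partner of S100a8 in calprotectin, had 14, 14 and 0 counts in WT 1 to 3 and 1, 9 and 62 counts in GFAP-IL6 1 to 3. The 0 of 7852743 reads in WT 3 allows up to 0.393 CPM by the limit of 3 counts. S100a9 was at 0.728 and 0.775 CPM in the other WT mice and at 0.105, 0.431 and 1.61 CPM in the GFAP-IL6 mice. Its log2 fold change was 0.55 ± 0.710 (SE; 95% interval -0.97 to 2.06; edgeR adjusted p = 0.910). It was -0.88 without GFAP-IL6 3, 0.21 without WT 3, and between 0.83 and 0.86 without WT 2, GFAP-IL6 1 or GFAP-IL6 2. The genotype difference of S100a8 and of S100a9 was smaller than the spread between mice, and in bulk tissue fewer cells of a type and less RNA per cell cannot be told apart.

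Of 12 neutrophil markers only Csf3r and Mmp9 passed the filter, while Ly6g and Mmp8 had 0 counts in every mouse. The list summed to between 0.787 and 3.60 CPM in WT and between 5.38 and 9.12 CPM in GFAP-IL6 mice, highest in GFAP-IL6 3. Csf3r, the receptor for G-CSF, made up most of that sum on average in the GFAP-IL6 mice, and it is expressed by microglia and monocytes as well. Csf3r was at 1.14 ± 0.891 CPM in WT and 4.70 ± 1.59 CPM in GFAP-IL6 mice (SD, n = 3 each; log2 fold change 1.97, edgeR adjusted p = 0.0142). Of 7 monocyte markers 2 were tested and 0 called, and the list summed to between 3.43 and 4.85 CPM in WT and between 4.17 and 5.38 CPM in GFAP-IL6 mice. The 5 red blood cell markers summed to between 751 and 1034 CPM in WT and between 702 and 958 CPM in GFAP-IL6 mice, with 0 called. The part of such cells in the S100a8 and S100a9 counts was not tested.

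S100a4, known from motile cells and fibroblasts, was at 0.832, 1.11 and 1.05 CPM in WT 1 to 3 and at 1.37, 0.959 and 1.45 CPM in GFAP-IL6 1 to 3. The genotypes overlapped, and the log2 fold change was 0.35 ± 0.386 (SE; 95% interval -0.47 to 1.18; edgeR adjusted p = 0.890). It was 0.19 without GFAP-IL6 3 and 0.22 without WT 1. The 7 meningeal fibroblast markers summed to between 42.2 and 72.0 CPM in WT and between 47.1 and 70.2 CPM in GFAP-IL6 mice, with 0 called.

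**Figure D3:**
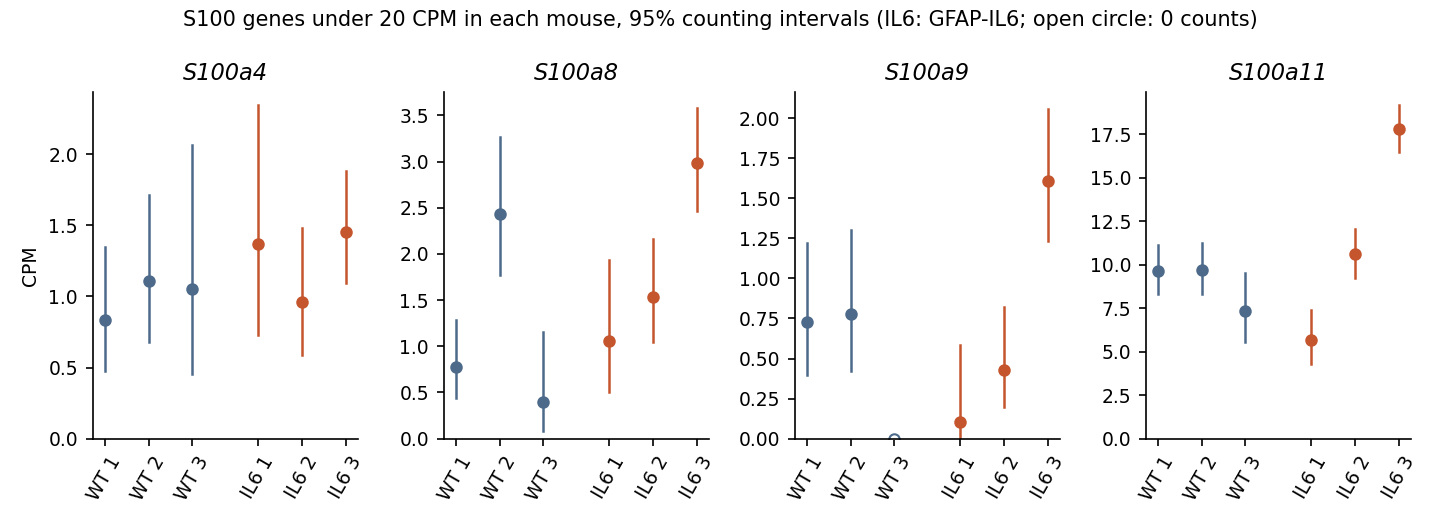
CPM of S100a4, S100a8, S100a9 and S100a11 in each mouse, with exact 95% Poisson intervals of the counts as vertical lines and an open circle at 0 counts. GFAP-IL6 3 is the highest mouse in each panel, at 1.45, 2.98, 1.61 and 17.8 CPM, and GFAP-IL6 1 lies within or below the WT range for S100a8, S100a9 and S100a11.

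Summed over the 9 genes, the level was 786, 790 and 746 CPM in WT 1 to 3 and 808, 848 and 914 CPM in GFAP-IL6 1 to 3. S100a1 and S100a16 made up most of this sum in every mouse. S100b, the astrocyte member left out of the 9, was at 375 CPM in WT and 352 CPM in GFAP-IL6 mice on average (log2 fold change -0.092, edgeR adjusted p = 0.845), and of 7 S100 genes outside the 9 only S100b and S100a3 were tested, with 0 called.

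The genotype comparison was repeated within each set, with 1 library per mouse. DEGs made up 0.681% of genes in the 2 ng set A, 0.744% in the 2 ng set B, 0.774% in the 1 ng set A and 0.755% in the 1 ng set B, and in each of the 4 sets 0 of the S100 genes tested were among them (6, 6, 6 and 7 tested). edgeR gave an unadjusted p under 0.05 for 4, 0, 1 and 0 of them, against 7.59%, 6.77%, 7.34% and 6.98% of all genes in the same sets, and DESeq2 called 0 in every set. Those 4 in the 2 ng set A were S100a1, S100a6, S100a13 and S100a16, with log2 fold changes of 0.22 to 0.34 and edgeR adjusted p from 0.328 to 0.643, and the 1 in the 1 ng set A was S100a13. S100a1, S100a6, S100a11, S100a13 and S100a16 had positive log2 fold changes in each of the 4 sets. Each set holds the same 6 mice, so these are repeats of the same RNA and not further replicates.

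Genes of the pathway around these proteins were also counted. Of 6 S100 receptors 4 were tested and 0 were called, and the list summed to between 687 and 725 CPM in WT and between 792 and 811 CPM in GFAP-IL6 mice. Bsg, basigin, named after its values were seen, made up most of that sum in both genotypes, at 596 ± 23.0 CPM in WT and 694 ± 5.32 CPM in GFAP-IL6 mice (SD, n = 3 each; log2 fold change 0.22, edgeR adjusted p = 0.345). Ager, which encodes RAGE, and Cd36 did not pass the filter. Of 15 binding partners of S100 proteins 14 were tested and 0 were called, with 8 positive and 6 negative log2 fold changes and a median of 0.041. Also chosen after their values were seen, Tlr4 had a log2 fold change of 2.13 (edgeR adjusted p = 0.146) from 75 counts in all, Ahnak one of 0.60 (adjusted p = 0.137) and Anxa2, the partner of S100a10, one of 0.55 (adjusted p = 0.180). Cacybp, the partner of S100a6, was at 179 CPM in WT and 175 CPM in GFAP-IL6 mice on average.

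Some markers of microglia, astrocytes, endothelial cells and mural cells passed an adjusted p under 0.05 between the genotypes. Of 8 microglia markers 5 had an adjusted p under 0.05 and 1 of them, Aif1, was called (log2 fold change 1.22, edgeR adjusted p = 2.57e-06), and the list summed to between 389 and 440 CPM in WT and between 612 and 773 CPM in GFAP-IL6 mice. Of 8 astrocyte markers only Gfap was called (log2 fold change 2.44, adjusted p = 1.59e-06). Endothelial markers summed to between 96.9 and 106 CPM in WT and between 121 and 199 CPM in GFAP-IL6 mice, with 2 of 6 at an adjusted p under 0.05 and 0 called, and for mural cell markers it was 1 of 6 and 0, with sums of 73.8 to 104 CPM in WT and 113 to 132 CPM in GFAP-IL6 mice. Of the neuron, oligodendrocyte, border macrophage and choroid plexus lists 0 genes were called, and border macrophage markers summed to between 8.85 and 12.1 CPM over all mice. The part of these cell types in the values of S100a1 and S100a13 was not tested.

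The libraries were made to compare 2 ng with 1 ng of cDNA in the tagmentation reaction. Counts of sets A and B were summed per mouse and amount, with genotype in the model. 12.8% of 13389 genes passed an adjusted p under 0.05 and 0 of the 8 S100 genes tested did, with 1 at an unadjusted p under 0.05 and 0 by DESeq2. S100a11 was nearest, with a log2 fold change (2 ng over 1 ng) of -0.63 ± 0.228 (SE) and an adjusted p of 0.0785. Both amounts came from the RNA of the same mouse, and with the mouse as a replicate block 33.3% of genes passed, 17.7% as lower with 2 ng, and 2 of the 8 S100 genes, S100a11 and S100a13, were called, both lower with 2 ng. That share of the S100 genes is below the share of all genes.

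S100a11 was lower with 2 ng in each of the 6 mice. In WT 1 to 3 it was at 7.92, 6.93 and 3.97 CPM with 2 ng and at 11.03, 11.8 and 9.57 CPM with 1 ng, and in GFAP-IL6 1 to 3 at 5.41, 8.04 and 13.2 CPM with 2 ng and at 5.85, 12.7 and 21.5 CPM with 1 ng. GFAP-IL6 1 showed the smallest difference and WT 3 the largest. With the block the log2 fold change was -0.65 ± 0.109 (SE; 95% interval -0.87 to -0.44; edgeR adjusted p = 3.04e-08), so that the 2 ng level was 0.635 times the 1 ng level. Errors and intervals of this blocked fit rest on a variance shared over all genes (879 degrees of freedom) and do not measure the spread between mice. The differences in log2(CPM + 0.5) within the 6 mice had an SD of 0.351. An exact two-sided paired permutation test over the 6 mice gave an unadjusted p = 0.0313, the smallest that 6 pairs allow. The share of all genes that were lower in 6 of 6 mice was not counted. The blocked call was made within set A (log2 fold change -0.72, where 31.9% of genes passed) and within set B (-0.58, where 21.4% passed).

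S100a13 was lower with 2 ng in 5 of 6 mice, with a mean of 85.4 ± 13.5 CPM against 95.7 ± 15.2 CPM with 1 ng (SD, n = 6) and WT 1 as the exception at 74.8 against 73.6 CPM. The blocked log2 fold change was -0.14 ± 0.038 (SE; edgeR adjusted p = 0.00143), and the exact paired permutation test gave p = 0.0625. Its blocked call was made within set A at -0.18 and not within set B at -0.073. S100a10 had a blocked log2 fold change of -0.080 (edgeR adjusted p = 0.0579), with -0.12 within set A and -0.011 within set B. S100a1, S100a6 and S100a16 lay between -0.0090 and 0.026. S100a6 was at -0.081 within set A and at 0.085 within set B (edgeR adjusted p = 0.197 and 0.156), S100a16 at -0.0073 and 0.065, and S100a1 at 0.037 and 0.047. The interval for S100a1 was -0.018 to 0.069. S100a9 did not pass the filter for this comparison. From few counts it was lower with 2 ng in 5 of 6 mice and at 0 with both amounts in WT 3 (exact paired permutation test, p = 0.0625).

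**Figure D4:**
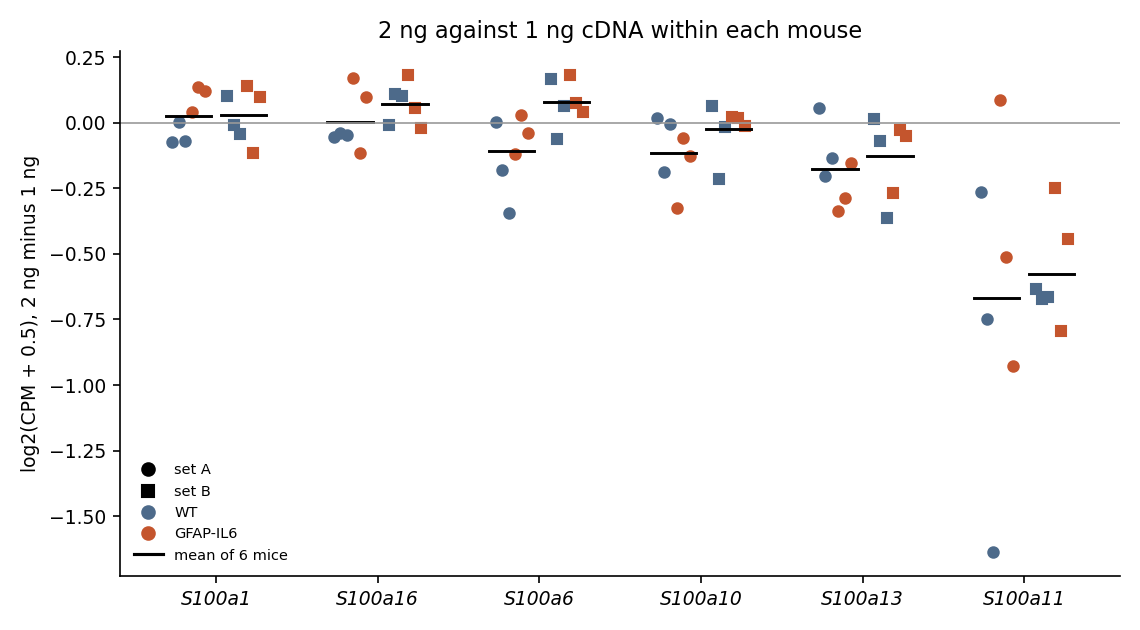
Difference in log2(CPM + 0.5) between 2 ng and 1 ng within each mouse, for set A (circles) and set B (squares), with the mean of 6 mice as a line, for the 6 genes with counts in every library. S100a11 lies below 0 in 5 of 6 mice in set A and in 6 of 6 in set B, while S100a1 and S100a16 lie on both sides of 0.

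The shift with cDNA amount differed between genes of different length. With the block, 132 genes listed under 500 nt had a median log2 fold change of -0.23 and 49.2% of them were called lower with 2 ng, 692 genes from 500 to below 1000 nt had a median of -0.031 with 26.0% called lower. The median was 0.017 with 16.5% called lower for 2588 genes from 1000 to below 2000 nt, and 0.023 with 14.9% for 6897 genes from 2000 to below 5000 nt. For the 3080 genes of 5000 nt or more it was -0.038 with 21.8%, so the shift did not follow length in 1 direction. S100a11 is listed at 511 nt and S100a13 at 715 nt, and S100a4, at 498 nt, had a blocked log2 fold change of -0.58 (edgeR adjusted p = 0.172). S100a8, at 486 nt, was at -0.012 ± 0.267 (SE), and the longest of the 9, S100a16 at 1439 nt, was at 0.015. The part of length in the values of S100a11 and S100a13 was not tested.

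**Figure D5:**
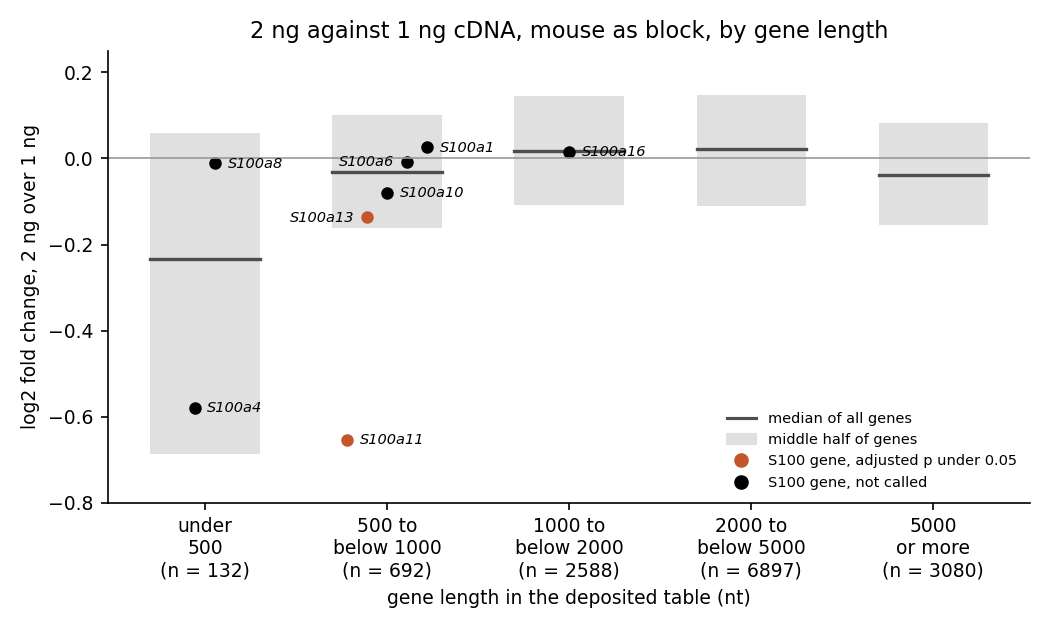
Log2 fold change of 2 ng over 1 ng with the mouse as block, against gene length in 5 ranges, with the median of all genes as a line and their middle range (lower to upper quartile) as a bar. S100a11 at -0.65 lies under the middle range of the 692 genes from 500 to below 1000 nt, and S100a13 at -0.14 lies inside it.

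Set A was compared with set B after summing 2 ng and 1 ng per mouse. Without the block 7.47% of genes passed an adjusted p under 0.05 and 0 of the 8 S100 genes tested did, 0 at an unadjusted p under 0.05 and 0 by DESeq2. With the mouse as a replicate block 23.3% of genes passed and 1 S100 gene, S100a10, was called at a log2 fold change (A over B) of -0.11 ± 0.041 (SE; edgeR adjusted p = 0.0434), a share of the S100 genes below that of all genes. The genotype difference did not pass as different between cDNA amounts for any gene, with 0% of 13961 genes called by edgeR and 0 by DESeq2 (0% also with the block), and 0 of the 8 S100 genes had an unadjusted p under 0.05 for it.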

How the data were processed

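Frontal cortex RNA of 3 WT and 3 GFAP-IL6 mice was measured in 24 3'Pool-seq libraries. The authors trimmed polyA stretches, aligned the reads with STAR 2.4 and counted uniquely aligned reads per gene of the GENCODE vM6 annotation with featureCounts. The study's methods name mm10 for mouse, whereas the build in the submitters' processing notes is hg19, and the identifiers in the table are mouse. The authors deposited raw counts for 33000 genes with each gene's length and no normalization, and the strand setting of the counting is not given in the sources used here.

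Groups were taken from the labels, and the mouse was the replicate. Counts were tested by the quasi-likelihood test of edgeR 4.0.16 (R 4.3.3), with TMM factors, filterByExpr and Benjamini-Hochberg adjustment over all genes tested. Genotypes were compared on the 4 libraries of each mouse summed and within each set, calling a gene at an adjusted p under 0.05 with a log2 fold change past 1 in either direction, and cDNA amounts, sets and the interaction at an adjusted p under 0.05. Standard errors were derived from the F statistic. For cDNA amounts and sets the mouse is shared by design, and the correlation of the deviations of a mouse's 2 ng and 1 ng samples was 0.310 to 0.461. Exact permutation tests used log2(CPM + 0.5). Alternatives were DESeq2 1.42.0, its size factors, no filter, at least 10 counts in every sample, thresholds of 0.1 and 1.5, the replicate block, each mouse left out, equal totals by down-sampling, CPM without TMM factors, and limma 3.58.1 voom on 24 libraries. Added after the data were seen were the blocked fits and exact paired tests within sets, and leaving out the deepest and the shallowest mouse together.

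Without molecular identifiers, PCR copies cannot be told from separate molecules, so Poisson intervals and the limit of 3 counts cover counting error only. The 9 genes, the gene lists and the motifs were chosen with earlier results of these data known. All 9 genes were named, each list is given as counts, and list genes were named when called or overlapping a member, except where stated. Positions came from GENCODE vM21 (GRCm38) by Ensembl identifier (9 of 9 matched) and upstream sequences from RefSeq (GRCm38.p6). The tests were also run on simulated counts. The outcome of that run is not given here, and it adds no assurance for the values above.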

Additional observations from a re-analysis of the deposited data

How the results depend on the processing

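Calls among the S100 genes in the genotype comparison stayed at 0, summed and in each set, with DESeq2, its size factors, no filter, at least 10 counts, thresholds of 0.1 for the adjusted p and 1.5 for the log2 fold change together, the replicate block (0 genes, with same-numbered mice correlated at -0.05 to -0.03, so the numbers mark no pairs) and each mouse left out (0 to 0). Voom and down-sampling, run for the summed comparison alone, also gave 0. For 2 ng against 1 ng, 1 gene (S100a11) was called with no filter, 2 with the replicate block, 2 and 1 with the block within sets A and B, and 0 to 1 with a mouse left out, 1 only without GFAP-IL6 1. For set A against set B the replicate block gave 1 call, S100a10. With the block the number of all genes called rose from 1714 to 4462 and from 1015 to 3169 in these comparisons. Among all genes the summed genotype comparison called 180, against 97 at thresholds of 0.1 and 1.5, 106 without GFAP-IL6 3 and 118 without GFAP-IL6 3 and WT 3. Within sets 83 to 98 were called, and 39 to 142 under the alternatives. With each mouse left out, 1142 to 1781 genes were called for 2 ng against 1 ng and 578 to 1103 for set A against set B.

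The log2 fold change of S100a10 turned from negative to 0.058 within the 1 ng set A, and with each mouse left out it ran from -0.070 to 0.011, positive without WT 1, WT 2 or GFAP-IL6 1. With each mouse left out S100a9 ran from -0.88 to 0.86 and S100a11 from -0.10 to 0.66, both negative without GFAP-IL6 3. Without both GFAP-IL6 3 and WT 3, the log2 fold changes of S100a8, S100a9 and S100a11 were -0.25, -1.23 and -0.19, and those of S100a4, S100a6 and S100a16 were 0.21, 0.081 and 0.030. The cause was not tested. S100a1, S100a4, S100a6, S100a13 and S100a16 kept a positive sign in every alternative. CPM without TMM factors moved by less than 1 SD for all 9 genes. S100a4, S100a8 and S100a9 had at most 3 counts in 11, 11 and 15 of 24 libraries, and S100a4 and S100a9 did not pass the filter in any single set.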
